A study of Mus musculus with 46 samples.

Results

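Neonatal H3K27ac regions absent from adult settings were 491 stretches of chromatin with a called region of H3K27ac, the acetyl mark of active promoters and enhancers, in microglia at postnatal day 8 (PND8) and none in adult or repopulating microglia. They were chosen by the measured peak calls themselves. A region of the first PND8 Ki67-negative library was kept when it overlapped, by at least 1 bp, a region in each of the other 3 PND8 H3K27ac lists, and overlapped none in the 2 adult lists and the 2 lists of repopulating cells. Of 27644 regions in that library, 23015 were in all 4 PND8 lists, and 491 of those met the rule. Because presence at PND8 and absence in adult and repopulating cells defined the set, those values are given as a description and carry no test. The 4 H3K27ac lists of cuprizone-treated adults, the lists of open chromatin, Rpb2 and H3K4me3, and all RNA were not used in the choice.

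Acetylated H3K27 sits at promoters and enhancers in use, and its loss from an enhancer usually accompanies loss of that enhancer's activity while the DNA may remain accessible. Microglia, the resident macrophages of the brain, pass through a perinatal stage in which they divide, clear dying cells and support myelination before they take on the adult surveillance state. Genes known from this stage include growth factors such as Igf1 and RNA-binding proteins of the fetal let-7 pathway, Lin28b and Igf2bp3.

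The study compared dividing and non-dividing microglia across settings. All cells were sorted from brains of male C57BL/6 mice. PND8 mice were 8 days old and had no treatment. Adult mice, whose microglia are labelled Ki67-negative, had no treatment either and were 60 and 65 days old for H3K27ac and Rpb2, 75 days for H3K4me3, 80 days for ATAC-seq and 90 days for RNA. The file headers of both adult H3K27ac lists also name a vehicle, which the labels do not. Repopulating microglia came from mice that ate the CSF1R inhibitor PLX5622, which depletes microglia, for 17 days and then recovered for 3 days. By the labels these mice were 90 days old for H3K27ac and 75 days for RNA and ATAC-seq, but the file header of the first H3K27ac list gives 80 days. Cuprizone mice, 90 days old, had eaten cuprizone, a toxin that strips myelin, for 4 weeks. Cells of PND8, cuprizone and repopulating mice were sorted by Ki67, a protein of cycling cells. Both Ki67 classes are present for RNA in PND8 and repopulating mice and for H3K27ac in PND8 and cuprizone mice, whereas repopulating H3K27ac and all sorted ATAC-seq and Rpb2 lists are of Ki67-positive cells. For RNA, PND8 and repopulating mice carried the Ki67-rfp reporter and adults were wild type, and mice for chromatin immunoprecipitation were all wild type, with Ki67 stained by antibody in fixed cells. ATAC-seq mice are labelled wild type, although 2 of the 3 titles name Ki67-rfp. Each H3K27ac and RNA group held 2 samples, which the labels call independent. Rpb2, a subunit of RNA polymerase II, had 1 list at PND8 and 2 in adults. H3K4me3, a promoter mark, had 2 adult lists, and ATAC-seq, which maps open chromatin, had 1 list per setting.

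RNA libraries held 6865903 to 10287876 counts. Microglial identity genes were high in every group: 12 markers summed to 9675 and 9816 CPM (counts scaled to library size) in adult libraries and to 7506 to 9183 CPM in the 4 PND8 libraries. None of the 12 was at the floor of 3 counts in any group, and at least 6 of 7 lymphocyte markers were at it in each group. Astrocyte markers were uneven between libraries. They summed to 97.4 and 431 CPM in PND8 Ki67-negative, 61.5 and 376 CPM in PND8 Ki67-positive and 240 and 248 CPM in adult libraries. Of 7 tested, 3 were higher and 0 lower in PND8 Ki67-negative cells than in adults. The part of astrocyte RNA in the results below was not tested. Adult RNA differed from PND8 RNA in age, in the reporter allele and in a numeric code in the file headers, and the 3 cannot be told apart. Of the 8 H3K27ac lists used by the rule, the adult ones held 19572 and 24903 regions, the repopulating ones 30129 and 27008, and the PND8 ones 26962 to 30321. The share of tags in regions was 32.6% and 58.3% in the adult lists and 45.5% to 54.95% at PND8. Absence here means that no region was called, and the part of list length in it was not tested. Within the 4 lists that share 1 header code (1 for each PND8 class, 1 adult, 1 repopulating), the same rule gave 1553 regions. All 4 also served to choose the 491.

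Sequences are shown for 6 genes whose RefSeq promoter lies in or touches a neonatal region and whose RNA the results below turn on: 4 genes of the early microglial stage and the 2 with the strongest promoter regions that returned in all 4 cuprizone lists. Each line gives the 250 bases before the annotated start, 5′ to 3′ on the gene's strand, from RefSeq (GRCm38.p6). Capitals mark any match to 1 of 15 short motifs searched on both strands. The coordinates are chr6:49214955-49215204 (minus strand) for Igf2bp3, chr10:45470202-45470451 (minus) for Lin28b, chr1:74153744-74153993 (plus) for Cxcr2, chr13:37049214-37049463 (minus) for F13a1, chr10:87860861-87861110 (plus) for Igf1 and chr2:164443189-164443438 (minus) for Sdc4. All 250 bases lay in the region for Igf2bp3, Cxcr2, F13a1 and Sdc4, 207 did for Lin28b, and 122 did for Igf1, whose start in the count table lies further upstream, inside the region.
Igf2bp3: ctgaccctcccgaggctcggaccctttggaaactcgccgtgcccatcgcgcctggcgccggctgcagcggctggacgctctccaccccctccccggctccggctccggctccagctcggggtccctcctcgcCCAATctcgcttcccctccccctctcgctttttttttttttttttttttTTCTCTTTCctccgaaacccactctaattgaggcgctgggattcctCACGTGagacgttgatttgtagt
Lin28b: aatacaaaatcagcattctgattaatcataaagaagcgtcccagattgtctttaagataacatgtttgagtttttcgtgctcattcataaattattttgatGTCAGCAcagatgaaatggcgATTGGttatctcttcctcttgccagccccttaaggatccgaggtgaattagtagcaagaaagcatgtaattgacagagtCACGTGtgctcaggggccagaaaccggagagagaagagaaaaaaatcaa
Cxcr2: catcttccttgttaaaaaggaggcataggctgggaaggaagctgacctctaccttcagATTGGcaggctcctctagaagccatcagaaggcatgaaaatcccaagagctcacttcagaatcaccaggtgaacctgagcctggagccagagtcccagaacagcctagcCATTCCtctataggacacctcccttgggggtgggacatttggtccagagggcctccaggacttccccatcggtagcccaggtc
F13a1: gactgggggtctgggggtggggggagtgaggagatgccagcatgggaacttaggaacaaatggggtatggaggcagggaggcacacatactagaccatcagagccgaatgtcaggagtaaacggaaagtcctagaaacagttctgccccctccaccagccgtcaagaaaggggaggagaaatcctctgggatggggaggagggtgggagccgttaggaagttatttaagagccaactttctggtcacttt
Igf1: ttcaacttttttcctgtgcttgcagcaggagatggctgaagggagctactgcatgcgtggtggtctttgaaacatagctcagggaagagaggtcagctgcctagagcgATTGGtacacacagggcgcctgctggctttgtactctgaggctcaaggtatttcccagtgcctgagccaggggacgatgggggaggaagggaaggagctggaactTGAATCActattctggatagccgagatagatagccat
Sdc4: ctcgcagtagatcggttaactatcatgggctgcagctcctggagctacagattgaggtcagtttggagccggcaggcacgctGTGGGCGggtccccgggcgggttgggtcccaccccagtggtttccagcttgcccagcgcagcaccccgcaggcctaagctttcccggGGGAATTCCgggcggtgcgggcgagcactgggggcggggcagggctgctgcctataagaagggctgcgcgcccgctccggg

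The Igf2bp3 and Lin28b windows each held CACGTG, the E-box read by MITF and TFE factors. Of 26 RefSeq promoter windows that lay mostly in a neonatal region, these 2 held it (7.69%), against 6.02% of all 32851 windows in the table. The Igf2bp3 window also held the IRF repeat GAAANNGAA (3.85% of the 26 windows, 7.13% of all), and that of Lin28b the MAF site TGCTGAC (7.69% and 3.81%). In the Igf1 window the letters TGANTCA of AP-1 were found, but outside the part of the window that lay in the neonatal region. The Sdc4 window held GGGANTTCC of NF-kappaB (3.85% of the 26 windows, 1.43% of all) and GTGGGCG of EGR (7.69% and 7.02%). The short CCAAT box of NFY was in 8 of the 26 windows (30.8%) and in 33.8% of all windows. These are matches of letters only, and none of the 15 motifs matched in the F13a1 window.

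The neonatal regions were weak and narrow as H3K27ac regions go. Their median width was 898 bp (501 to 3427 bp), against 1588 bp over all regions in the 4 PND8 lists. Their median signal, the authors' tag count scaled to a fixed library size, was 31.6 in the reference library, against 122 over all regions in the 4 PND8 lists. The median fold over input was 7.82 against 17.5. Only 57 of them were at least 8-fold over input in all 4 PND8 lists. To set them beside regions of like strength, the 3525 other regions in the 4 PND8 lists whose reference signal lay within the middle range of the neonatal ones (19.9 to 48) are given below. Each of these overlapped an adult or repopulating H3K27ac list, since the rule had left it out. Contrasts with them, also for the other marks, are therefore not free of the rule.

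Most neonatal regions lay far from any adult or repopulating region, with a median gap of 10445 bp. In 249 the gap was over 10000 bp. In 41 it was under 1000 bp, so that a shift of a region's edge would have removed them. Just inside the rule was the promoter region of Tspan8, which overlapped another PND8 list by 3 bp, and just outside was a region near Camk1d that overlapped an adult or repopulating region by 5 bp. A further 921 regions of the 4 PND8 lists were kept out by exactly 1 of the adult and repopulating lists, 493 of them by the first repopulating list and 309 by the second adult list.

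By annotation, 33 neonatal regions (6.72%) lay at a promoter, meaning that a transcript start of the count table was in the region or within 1000 bp of it. Another 251 (51.1%) had their centre inside a gene and 207 (42.2%) lay between genes. Promoters made up 38.9% of all regions in the 4 PND8 lists and 23.5% of the regions of like signal. The share at promoters was thus lower than in both. The nearest starts named 449 genes, of which 413 had 1 region and 36 had more than 1. Zfp36l1, an RNA-decay factor, had 4 regions, and Igf2bp3, the transcription factor Maf, the stress kinase Map3k20 and Nol4l had 3 each.

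The strongest regions by mean signal over the 4 PND8 lists were a mixture of promoters and edges of wider domains. The region with the highest mean, inside Cbfa2t3 (chr8:122698448-122699087), a corepressor of the ETO family, had a signal of 46.9 in the reference library and of 447, 627 and 815 in the strongest overlapping regions of the other 3. It ended 816 bp from an adult or repopulating region. A region in Swap70 lay 70 bp from such a region and one in Plekhg5 594 bp, both also weak in the reference library (44.4 and 37.2) beside the other 3 lists. By contrast, the Igf1 region (chr10:87857556-87860982) was 3427 bp wide, 14882 bp from the nearest repopulating region and 339423 bp from the nearest adult one. Its signals were 260 and 245 in the Ki67-negative lists and 137 and 197 in the Ki67-positive lists. Other strong promoter regions were those of Igf2bp3 (chr6:49213611-49215539, signals 233, 153, 322 and 264), Epor, the erythropoietin receptor (chr9:21961984-21964263, 227, 215, 125 and 199), and Sdc4 (chr2:164441116-164443501, 254, 184, 155 and 171).

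A strong region on chromosome 12 (chr12:113429680-113430456) was linked by distance to Adam6b, 59497 bp away, whose RNA was below the test's filter. Another strong region, linked to the proteasome gene Psmd7, lay inside Wwp2 instead. In all, 209 regions had their centre in the linked gene, 71 had it in another gene than the linked one, and 414 lay within 100000 bp of the linked start. The link to the nearest start is therefore a label of position, and its firmness differs from region to region.

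Part of the neonatal set carried H3K27ac again in cuprizone-treated adults. Of the 491 regions, 230 (46.8%, exact 95% binomial interval 42.4 to 51.4) were in none of the 4 cuprizone lists, 103 were in 1, 74 in 2, 45 in 3 and 39 (7.94%, 5.71 to 10.7) in all 4. Among regions of like signal, 2.75% were in none and 47.8% in all 4, and over all regions in the 4 PND8 lists 1.87% and 80.4%. Recurrence was thus lower for the neonatal set than for both comparison sets. Each region of like signal overlapped an adult or repopulating H3K27ac list, and those of the other set could, so the contrast is not free of the rule. Intervals cover counting error only, and regions of 1 list are not replicates.

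**Figure D1:**
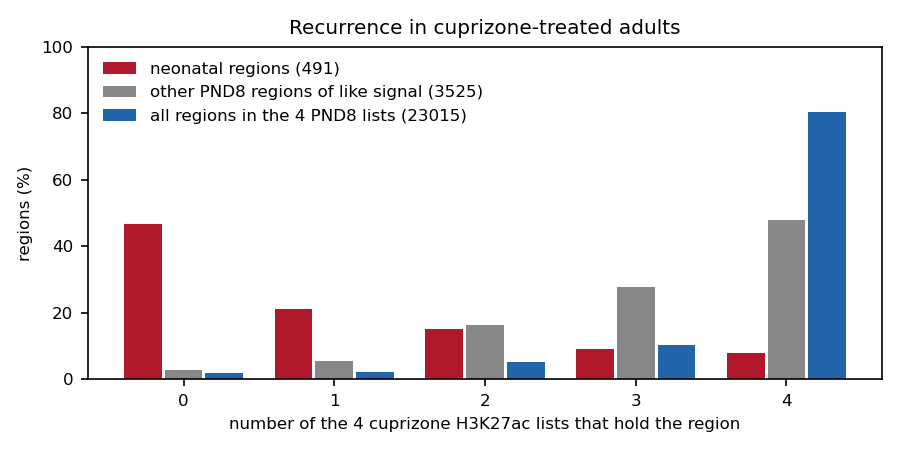
Share of regions (y axis, %) by the number of cuprizone H3K27ac lists that hold them (x axis), for the 491 neonatal regions, 3525 other PND8 regions of like signal and all 23015 regions in the 4 PND8 lists. The neonatal regions are most often in none (46.8%), whereas 80.4% of all PND8 regions are in all 4.

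The 4 cuprizone lists held unequal numbers of neonatal regions. The Ki67-negative lists held 85 (17.3%) and 209 (42.6%) of the neonatal regions, and the Ki67-positive lists 87 (17.7%) and 161 (32.8%). The second replicate of each class was thus richer. Those second lists were also longer, at 30539 and 30283 regions against 24082 and 25108, and carried other header codes. Their part in the difference was not tested. Both Ki67-negative lists held 75 regions and both Ki67-positive lists 73, counts that cannot exceed those of the poorer first lists. The Ki67 classes held like numbers in the first lists (85 and 87). In the second lists, which were of like length and share a header code, the Ki67-negative cells held more (209 against 161). The part of Ki67 class in this was not tested. Without the first Ki67-negative list, 68 regions were in all remaining cuprizone lists.

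The Igf1 promoter region had the highest mean PND8 signal of those in all 4 cuprizone lists. There the cuprizone signals were 205 and 364 in Ki67-negative and 467 and 461 in Ki67-positive cells, within or above the neonatal range of 137 to 260. Its second region, 28077 bp from the start (chr10:87829881-87832069), had 66.8, 53.3, 11.3 and 32.4 in the neonatal lists and 69.5, 104, 169 and 139 in the cuprizone lists. A region linked to Igf1r, the receptor of Igf1, was also in all 4 cuprizone lists, with signals of 47.5 to 179 there against 14.2 to 60.2 at PND8. So was one at Timp2, an inhibitor of matrix proteases, with 57.5 to 198 against 22.8 to 81.8. The signal is that of the strongest overlapping region, and lists differed in the share of tags in regions (45.5% to 54.95% at PND8, 51.9% to 69.7% under cuprizone), so these are descriptions.

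Other recurring regions had lower cuprizone signals than PND8 signals. The promoter region of Sdc4, a heparan sulfate proteoglycan of the cell surface, was at 14, 53.5, 20.3 and 46.4 in the cuprizone lists against 155 to 254 at PND8. A region in Rxra, a nuclear receptor, was at 14.4 to 28.5 against 65.7 to 125. One linked to Icos was at 10.5 to 42.2 against 65.8 to 128. Regions of Plxnd1, a semaphorin receptor, and of Ctsd, a lysosomal protease, were in all 4 lists as well. The Ctsd region (chr7:142390497-142391130) overlapped a broad cuprizone region with a signal of 1992 in 1 list and lay 1475 bp from a repopulating one. In none of the cuprizone lists were the promoter regions of Igf2bp3, Lin28b, Emilin1, Ptk7 and F13a1, nor any of the 3 Igf2bp3 regions, the 3 at Maf or the 4 at Zfp36l1.

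Most neonatal regions were open chromatin, also in settings whose H3K27ac lists did not hold them. An ATAC-seq peak of PND8 cells overlapped 361 of them (73.5%, exact 95% interval 69.4 to 77.4). Peaks of repopulating cells overlapped 337 (68.6%, 64.3 to 72.7) and peaks of adult cells 289 (58.9%, 54.4 to 63.2). For regions of like signal the 3 shares were 85.2%, 90.2% and 87.6%. In the neonatal set PND8 thus had the highest share and adults the lowest, an order not seen in the regions of like signal. Peaks of all 3 settings were at 239 regions, of none at 92, of PND8 alone at 25, and of PND8 and repopulating cells but not adults at 70 (14.3%, against 3.06% of regions of like signal). There was 1 ATAC-seq list per setting and hence no replicate check. The lists had 75296 peaks at PND8, 71642 in adults and 95411 in repopulating cells. With only the peaks in the stronger part of each ATAC-seq list counted, the shares were 44% at PND8, 35.2% in repopulating and 23.4% in adult cells.

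**Figure D2:**
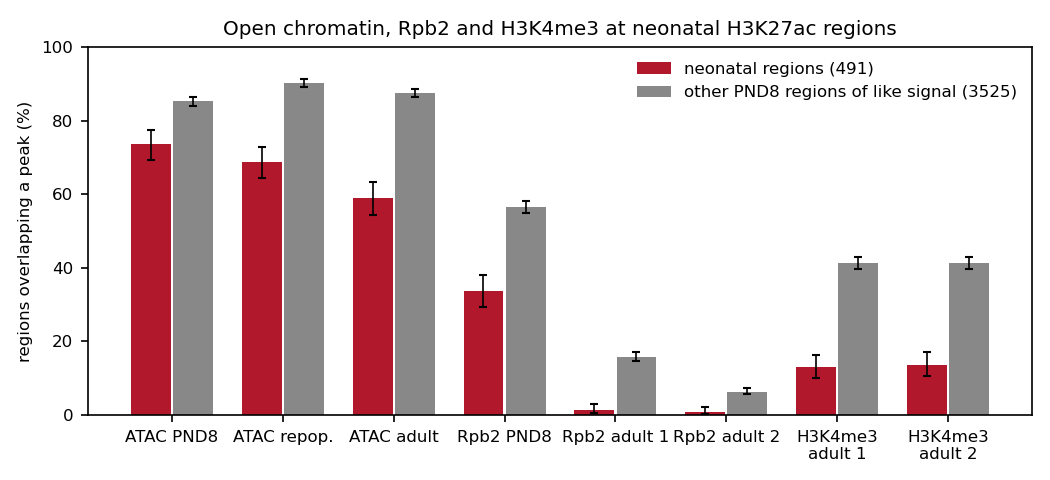
Share of regions (y axis, %) that overlap an ATAC-seq, Rpb2 or H3K4me3 peak of each list (x axis), for 491 neonatal regions and 3525 other PND8 regions of like signal; error bars are exact 95% binomial intervals. ATAC-seq shares of the neonatal regions run from 73.5% at PND8 to 58.9% in adults, and adult Rpb2 is at 1.43% and 0.815% of them.

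RNA polymerase II was found at a minority of the neonatal regions at PND8 and at very few in adults. Rpb2 peaks of PND8 cells overlapped 165 regions (33.6%, 29.4 to 37.97). Those of the 2 adult lists overlapped 7 (1.43%, 0.575 to 2.92) and 4 (0.815%, 0.222 to 2.07). For regions of like signal the shares were 56.6%, 15.9% and 6.38%. A PND8 Rpb2 peak with none in either adult list was at 156 neonatal regions (31.8%). The same held for 41.8% of regions of like signal and 29.7% of all regions in the 4 PND8 lists, so this pattern was not particular to the neonatal set. The PND8 Rpb2 list held 31602 peaks, and its file header names an H3K27ac input, whereas the adult lists held 14550 and 10544, so list length moves with the result. Its part was not tested.

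Promoter regions in the neonatal set often had H3K4me3 in adults, the only setting in which it was measured here. Over all 491 neonatal regions it was rarer, at 13.03% and 13.65% in the 2 adult lists, against 41.2% and 41.4% of regions of like signal. Shares for other promoter regions are not given here. Of the 33 promoter regions, 25 (75.8%, 57.7 to 88.9) overlapped an H3K4me3 region in each adult list, 23 (69.7%) an adult ATAC-seq peak, and 21 (63.6%) an Rpb2 peak at PND8. Only 2 of the 33 had an Rpb2 peak in each adult list. Igf1, Epor, Sdc4 and Igf2bp3 all had H3K4me3 and open chromatin in adults, and of these 4 only Sdc4 had adult Rpb2, in both lists. The Lin28b promoter region had adult H3K4me3 and PND8 Rpb2 but no ATAC-seq peak in any setting. The Ptk7 promoter region had an ATAC-seq peak at PND8 and none in adult or repopulating cells. The Cxcr2 promoter region had a peak in all 3 settings, with neither H3K4me3 in adults nor Rpb2 at PND8. Away from promoters, H3K4me3 was at 12.6% of the regions between genes and at 5.18% and 6.37% of those inside genes in the 2 adult lists.

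The RNA of genes next to neonatal regions was higher at PND8 than in adults more often than that of other genes. Of the 449 linked genes, 360 passed the low-count filter, and 55 of the 89 left out had at most 3 counts in every library. In Ki67-negative cells at PND8, 150 of the 360 were higher than in adults and 54 were lower by edgeR's quasi-likelihood test at an adjusted p of 0.05, where 25.4% of all 12230 genes tested were higher and 21.4% lower. These were 41.7% and 15% of the linked genes tested. The median log2 difference was 0.22 for linked genes and 0.03 for all genes. In Ki67-positive cells 130 were higher and 61 lower than in adults, against 25.1% and 24.3% of all genes, that is 36.1% and 16.9% of those tested. Of the genes tested, 18 were at or under 3 counts in both adult libraries and had passed the filter through another group, so a difference was built in for them. Requiring a fold of at least 2 left 56 higher and 6 lower in Ki67-negative cells. Without adult replicate 2, the genes lower in Ki67-negative PND8 cells numbered 35.

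**Figure D3:**
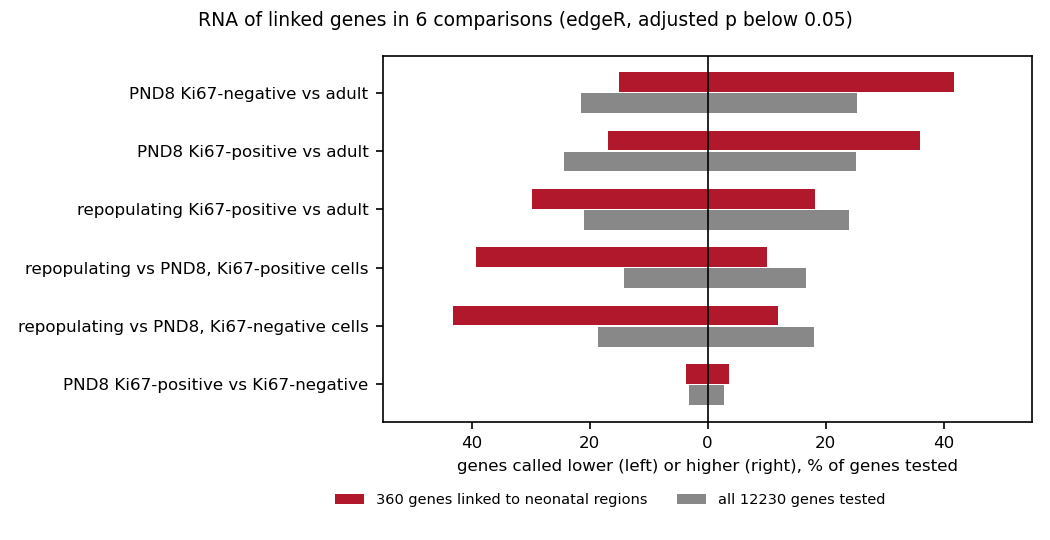
Genes called lower (left) or higher (right) by edgeR in each of 6 RNA comparisons, as a share of genes tested (x axis, %), for 360 genes linked to neonatal regions and all 12230 genes. The linked genes lean to higher at PND8 than in adults (41.7% in Ki67-negative cells) and to lower in repopulating cells than at PND8 (43.1% in Ki67-negative cells).

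Genes with the region at their promoter had the larger median difference. Of the 33 such genes 30 were tested, and 21 were higher and 1, Fut10, was lower in Ki67-negative PND8 cells than in adults, with a median log2 difference of 1.92. These 30 include Lin28b and Cxcr2, at the floor in both adult libraries, for which a difference was built in. How many others of the 30 were at that floor is not given here. Among genes linked only through regions inside or between genes, 129 of 330 were higher and 53 lower, with a median of 0.17. Of genes whose linked start lay over 100000 bp away, 15 of 53 were higher (28.3%) and 10 lower in Ki67-negative cells, near the share of all genes, and 19 were higher (35.8%) in Ki67-positive PND8 cells, where 25.1% of all genes were. In repopulating cells 18 of these 53 (34%) were lower than at PND8 in the Ki67-positive and 12 (22.6%) in the Ki67-negative class. The 31 tested genes with more than 1 region included 16 higher and 1 lower. Genes linked to regions with a PND8 Rpb2 peak were higher in 66 of 129 cases (51.2%), those linked to a region with a PND8 ATAC-seq peak in 114 of 268 (42.5%) and those linked to a region without one in 42 of 105 (40%).

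**Figure D4:**
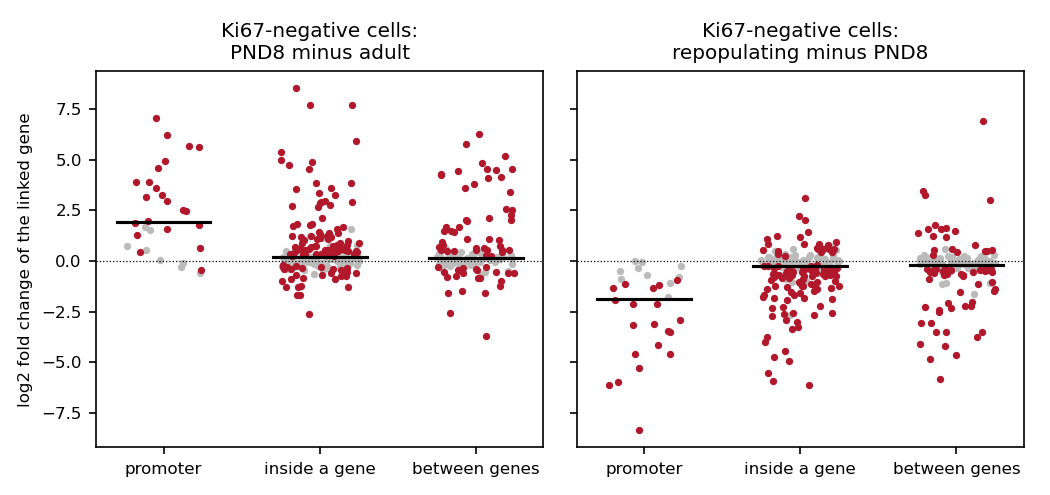
Log2 fold change (y axis) of the gene linked to a neonatal region, by where the region lies (x axis), for PND8 minus adult (left) and repopulating minus PND8 (right) in Ki67-negative cells; red points passed an adjusted p of 0.05 by edgeR, grey did not, and black bars are medians. A gene with regions in several places is drawn once, as promoter first, and promoter genes have a median of 1.92 on the left and of -1.86 on the right.

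Linked genes were lower in repopulating microglia than at PND8 more often than other genes. In Ki67-positive cells 36 linked genes were higher and 141 lower than at PND8, where 16.7% of all genes were higher and 14.2% lower, so 39.2% of the linked genes tested were lower. In Ki67-negative cells 43 were higher and 155 lower than at PND8 (43.1% of those tested), against 18% and 18.6% of all genes. Against adults, 66 were higher and 107 lower in repopulating Ki67-positive cells, with 23.9% and 21.0% of all genes. The comparisons share their PND8 or adult libraries. Of 30 tested genes with a promoter region, 20 were lower and none higher than at PND8 in each Ki67 class. For Lin28b and Cxcr2 among these 30, at the floor in the repopulating libraries, a difference was built in. At PND8 and in repopulating cells 1 library per Ki67 class carries the same header code, and over the 360 linked genes tested the median log2 ratio, of CPM + 0.5, between these single libraries was -0.30 in Ki67-negative and -0.26 in Ki67-positive cells. Both ratios use libraries of the comparisons above and have no replicate, and the same median over all genes tested is not given here.

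Between Ki67-positive and Ki67-negative PND8 cells 13 were higher and 13 lower, 3.61% each, near the 2.75% and 3.15% of all genes. Same-numbered libraries of the 2 classes share a header code. This count depended on the setting: with replicate number as a block 17 were higher and 28 lower, with header code as a term 22 were higher and 43 lower, without the first Ki67-negative library 26 were higher, and without the second Ki67-positive library 6 were higher and 1 lower. Without the first Ki67-positive library 3 were lower.

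Igf1, a growth factor that supports neurons and myelin-forming cells, had the widest region of all and 1 of the largest RNA differences. Its RNA was 3.35 and 2.93 CPM in the adult libraries, 145 and 161 CPM in PND8 Ki67-negative, 120 and 136 CPM in PND8 Ki67-positive, 2.71 and 1.37 CPM in repopulating Ki67-negative and 1.27 and 1.15 CPM in repopulating Ki67-positive libraries. The PND8 libraries lay far above all others, with no overlap. By edgeR the log2 difference from adults was 5.60 ± 0.18 (SE, adjusted p = 2.45e-10) in Ki67-negative and 5.34 ± 0.18 (adjusted p = 1.89e-10) in Ki67-positive cells. Repopulating Ki67-positive cells were lower than adults, at -1.36 ± 0.34 (edgeR, adjusted p = 0.00544). Igf1r, its receptor, had a region 58279 bp from its start and did not pass the test between PND8 Ki67-negative cells (213 and 198 CPM) and adults (202 and 173 CPM). Of 26 tested genes of IGF and TGF-beta signalling, 4 were higher and 14 lower in Ki67-negative PND8 cells, and only Igf1 and Igf1r were linked to a neonatal region.

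**Figure D5:**
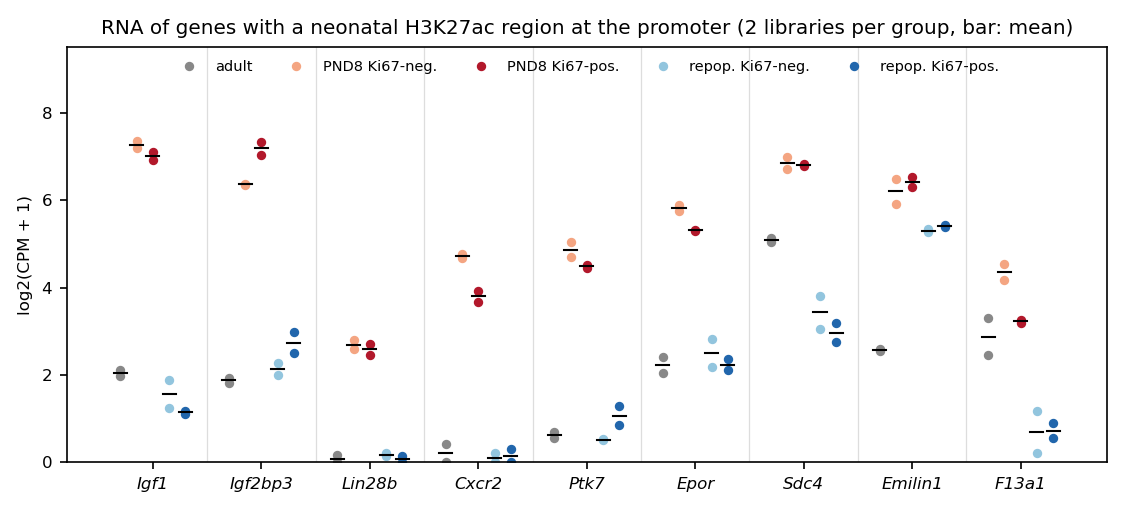
RNA level as log2(CPM + 1) (y axis) of 9 genes with a neonatal H3K27ac region at the promoter (x axis); each point is 1 of 2 libraries per group and black bars are means. PND8 libraries lie above adult and repopulating ones for each gene except F13a1, where PND8 Ki67-positive libraries fall within the adult range. The 9 genes are a selection. Of all 30 tested genes with a promoter region, 21 were higher and 1 lower in PND8 Ki67-negative cells than in adults.

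The fetal RNA-binding genes Igf2bp3 and Lin28b, whose promoters are printed above, had RNA at PND8 and little or none in adults. Igf2bp3, a reader that stabilises fetal transcripts, was at 2.54 and 2.81 CPM in adults, 80.2 and 81.6 CPM in PND8 Ki67-negative cells, 129 and 160 CPM in PND8 Ki67-positive cells, 3.02 and 3.81 CPM in repopulating Ki67-negative and 4.63 and 6.91 CPM in repopulating Ki67-positive cells. Its difference from adults was 4.91 ± 0.20 on the log2 scale in Ki67-negative cells (edgeR, adjusted p = 1.87e-09), and among PND8 cells the Ki67-positive ones were higher by 0.84 ± 0.13 (adjusted p = 0.00189, edgeR). Without the second Ki67-positive library this last difference was 0.71 and no longer passed. The 3 Igf2bp3 regions spanned the start from 3975 bp on one side to 2834 bp on the other, and each had PND8 Rpb2 and open chromatin in all 3 settings.

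Lin28b, which blocks let-7 maturation, was at 0 and 0.12 CPM in adults, 5.94 and 5.04 CPM in PND8 Ki67-negative cells, 4.52 and 5.55 CPM in PND8 Ki67-positive cells and at most 0.15 CPM in repopulating cells. Both adult libraries were under the floor of 3 counts per library, so PND8 Ki67-negative cells were at least 15.4-fold higher. Of 14 tested genes of the early microglial stage, 11 were higher and none lower in Ki67-negative PND8 cells than in adults, with a median log2 difference of 1.80. In Ki67-positive PND8 cells 8 were higher and 1, Ms4a6c, was lower. In Ki67-negative repopulating cells 2 were higher and 12 lower than at PND8. Besides Igf2bp3 and Lin28b, the list's linked genes were Cxcr2, F13a1 and Dab2, an endocytic adaptor linked over 514582 bp. Markers of border-associated macrophages moved with this list: of 8 tested, 6 were higher in PND8 Ki67-negative and 3 higher and 1 lower in PND8 Ki67-positive cells than in adults, and 8 were lower in repopulating Ki67-negative cells than at PND8. F13a1 and Mrc1 are in both lists, and the part of such cells in these counts was not tested.

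Receptors for chemokines and cytokines were among the genes with promoter regions. Cxcr2, a chemokine receptor best known from neutrophils, was at 0.35 and 0 CPM in adults, 24.4 and 26.1 CPM in PND8 Ki67-negative, 11.8 and 14.1 CPM in PND8 Ki67-positive and at most 0.23 CPM in repopulating libraries. Against the floor it was at least 70.7-fold higher in Ki67-negative PND8 cells than in adults. The 10 monocyte and neutrophil markers summed to 7.80 and 9.78 CPM in those cells, with 5 of the 10 at the floor (Ly6c2, Ngp, Camp, Mmp8 and Retnlg), and to 70.1 and 229 CPM in adults. Of the 7 tested, 1, Plac8, was higher in PND8 Ki67-negative cells than in adults and 6 were lower. The part of monocytes and neutrophils in the Cxcr2 result was not tested.

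Epor, the receptor for erythropoietin, was at 3.12 and 4.28 CPM in adults, 52.8 and 58.0 CPM in PND8 Ki67-negative, 38.4 and 38.6 CPM in PND8 Ki67-positive, 6.04 and 3.51 CPM in repopulating Ki67-negative and 4.16 and 3.31 CPM in repopulating Ki67-positive cells. The log2 difference from adults was 3.91 ± 0.23 in Ki67-negative cells (edgeR, adjusted p = 3.42e-08). Erythroid markers moved with it: the 6 summed to 31.6 and 77.0 CPM in PND8 Ki67-negative, 23.4 and 61.5 CPM in PND8 Ki67-positive, 0.46 and 7.45 CPM in adult and at most 1.37 CPM in repopulating libraries, and 5 of 5 tested were higher at PND8. Their part in the Epor difference was not tested. In bulk cells a change in the number of cells of a type and in RNA per cell cannot be told apart.

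Il21r, a cytokine receptor linked over 47928 bp, went the other way. It was at 246 and 261 CPM in adults, 81.4 and 78.1 CPM in PND8 Ki67-negative and 182 and 194 CPM in repopulating Ki67-negative cells, a log2 difference of -1.67 ± 0.12 between PND8 and adults (edgeR, adjusted p = 1.46e-07). The groups did not overlap. Its RNA was lower where the neighbouring region carried H3K27ac.

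Sdc4, Emilin1, Plxnd1 and Ptk7 encode proteins of the cell surface or matrix. Sdc4 was at 34.1 and 32.0 CPM in adults, 103 and 125 CPM in PND8 Ki67-negative, 109 and 113 CPM in PND8 Ki67-positive, 13.01 and 7.31 CPM in repopulating Ki67-negative and 8.10 and 5.76 CPM in repopulating Ki67-positive cells. It was higher at PND8 than in adults by 1.79 ± 0.17 (log2, edgeR adjusted p = 2.72e-06) and lower in repopulating Ki67-positive cells than in adults, at -2.23 ± 0.22 (edgeR, adjusted p = 3.31e-06). Adults thus lay between the other settings. Emilin1, a matrix glycoprotein, had repopulating levels between those of adults and PND8, at 4.86 and 5.01 CPM in adults, 59.4 and 88.6 CPM in PND8 Ki67-negative and 39.7 and 37.3 CPM in repopulating Ki67-negative cells. Its promoter region (chr5:30912552-30914259) lay 895 bp from a repopulating region and had none of the other marks.

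Plxnd1, a semaphorin receptor with a region 9796 bp from its start (chr6:116003923-116005678), had among the largest rises but unequal PND8 libraries. Its RNA was 2.08 and 4.89 CPM in adults, 163 and 369 CPM in PND8 Ki67-negative, 180 and 419 CPM in PND8 Ki67-positive, 66.9 and 58.5 CPM in repopulating Ki67-negative and 55.2 and 56.6 CPM in repopulating Ki67-positive cells. In both PND8 classes the second replicate, which carries another header code, was higher. The log2 difference from adults was 6.27 ± 0.54 in Ki67-negative cells (edgeR, adjusted p = 8.68e-07). Ptk7, a receptor of the planar polarity pathway, was at 0.46 and 0.61 CPM in adults, 24.7 and 31.8 CPM in PND8 Ki67-negative and 0.42 and 0.46 CPM in repopulating Ki67-negative cells, a difference of 5.69 ± 0.33 (log2, edgeR adjusted p = 3.42e-08). Its region (chr17:46629368-46632150) had its centre inside the neighbouring gene Klc4.

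Of 28 tested adhesion, matrix and axon guidance genes, 6 were higher and 9 lower in PND8 Ki67-negative cells than in adults, and Plxnd1, Nrp2, Timp2 and Itgb5 were linked to neonatal regions. Nrp2, a semaphorin and VEGF coreceptor, and Timp2 did not pass the test, at log2 differences of 0.14 and -0.04. The region linked to Nrp2 lay only 56 bp from an adult or repopulating region. Itgb5, an integrin subunit, was lower, at -0.36 ± 0.11 (edgeR, adjusted p = 0.0166). Cd44, a hyaluronan receptor with a weak region in the gene, did not pass in PND8 Ki67-negative cells (0.56, adjusted p = 0.126 by edgeR). It was higher than in adults by 1.74 ± 0.27 in PND8 Ki67-positive cells (adjusted p = 0.000132 by edgeR) and by 3.33 ± 0.25 among Ki67-positive repopulating cells (adjusted p = 2.64e-07 by edgeR). Adamtsl2, a secreted matrix protein, was lower at PND8, with 16.9 and 13.4 CPM in adults and 3.84 and 1.28 CPM in Ki67-negative cells.

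Some linked genes are markers of border-associated macrophages, which lie in the meninges and around vessels. F13a1, a coagulation factor subunit of such cells, was at 4.51 and 8.80 CPM in adults, 16.9 and 22.3 CPM in PND8 Ki67-negative, 8.15 and 8.55 CPM in PND8 Ki67-positive, 1.25 and 0.15 CPM in repopulating Ki67-negative and 0.46 and 0.86 CPM in repopulating Ki67-positive cells. The rise over adults was 1.57 ± 0.36 in Ki67-negative cells (log2, edgeR adjusted p = 0.00317), whereas Ki67-positive cells did not pass (0.33, adjusted p = 0.489 by edgeR). Ms4a7 was also higher in Ki67-negative cells, by 1.99 ± 0.48 (edgeR, adjusted p = 0.00398), and the scavenger receptor Cd163 did not pass at 0.35. The 9 border macrophage markers, these 3 among them, summed to 1885 and 2275 CPM in PND8 Ki67-negative, 2024 and 2032 CPM in PND8 Ki67-positive and 1403 and 1509 CPM in adult cells, and to 774 to 972 CPM in repopulating cells. Of 8 tested, 6 were higher in PND8 Ki67-negative cells than in adults, and in repopulating cells Lyve1, Cd209f and Ms4a7 were at the floor in both Ki67 classes. Their part in the F13a1 and Ms4a7 results was not tested.

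Of 33 tested transcription factors of microglia, 2 were higher and 14 lower in PND8 Ki67-negative cells than in adults. Of the 6 linked to neonatal regions, 1 was higher, 1 was lower and 4 did not pass the test. Tfec, a factor of the MITF family, was higher, with 1.62 and 1.10 CPM in adults, 20.2 and 19.2 CPM in PND8 Ki67-negative, 17.5 and 12.3 CPM in PND8 Ki67-positive and 1.29 to 2.89 CPM in repopulating libraries, a log2 difference of 3.83 ± 0.36 (edgeR, adjusted p = 1.94e-06). It had 2 regions inside the gene, 1 of them in 2 cuprizone lists. Arid5b, a chromatin regulator, was lower at PND8, at -1.25 ± 0.16 (edgeR, adjusted p = 3.32e-05).

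Maf, a factor of mature macrophages, had 3 regions 71426 to 398957 bp from its start. It was at 618 and 592 CPM in adults, 762 and 644 CPM in PND8 Ki67-negative and 735 and 693 CPM in PND8 Ki67-positive cells. The difference was 0.22 in Ki67-negative (adjusted p = 0.073) and 0.24 in Ki67-positive cells (adjusted p = 0.0467) by edgeR, and the latter call was lost when any 1 of the 4 libraries was left out (0.20 to 0.29). In repopulating Ki67-positive cells Maf was lower than in adults by -0.73 ± 0.09 (edgeR, adjusted p = 3.55e-05). Rxra, Cebpb and Jun did not pass in Ki67-negative PND8 cells, at -0.25, -0.15 and 0.18 on the log2 scale. Rxra was lower in repopulating Ki67-positive cells than in adults, at -1.29 ± 0.13 (edgeR, adjusted p = 3.2e-06).

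The genes with most regions, and those beside the strongest ones, had mixed RNA. Zfp36l1 was at 345 and 398 CPM in adults and 438 and 355 CPM in PND8 Ki67-negative cells, which overlapped. Nol4l overlapped as well, at 123 and 110 against 138 and 115 CPM. Map3k20 was higher at PND8 (66.5 and 60.4 CPM) than in adults (24.9 and 30.6 CPM) and stayed at 65.4 to 68.2 CPM in repopulating Ki67-negative cells. Cbfa2t3, Swap70 and Psmd7 did not pass the test in PND8 Ki67-negative cells against adults, at -0.11, 0.16 and -0.23, whereas Plekhg5 was higher by 1.40 ± 0.18 (edgeR, adjusted p = 3.48e-05). Gas7, an actin-binding protein with 2 regions inside the gene and none in the cuprizone lists, was at 3.24 and 2.44 CPM in adults, 105 and 136 CPM in PND8 Ki67-negative and 25.3 and 26.7 CPM in repopulating Ki67-negative cells.

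Lysosomal genes were represented by Ctsd and Mcoln2. Ctsd RNA was 1095 and 1130 CPM in adults and 1096 and 893 CPM in PND8 Ki67-negative cells, a difference that did not pass (-0.16, adjusted p = 0.271 by edgeR). Mcoln2, a lysosomal cation channel, had no count in either adult library and 4.08 and 6.51 CPM in PND8 Ki67-negative cells, at least 14.9-fold higher against the floor. Its region (chr3:146155812-146157632) was in 3 cuprizone lists and had ATAC-seq peaks at PND8 and in repopulating cells, not in adults. Among 26 tested genes of early postnatal activation, 20 were higher and none lower in PND8 Ki67-negative cells, and only Igf1, Ctsd and Cd44 were linked. Of 24 lipid and lysosome genes 18 were higher, and none was linked.

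Some linked genes act in cell division. Aurkb, a mitotic kinase with a region 7030 bp from its start, was at 1.39 and 1.71 CPM in adults, 39.0 and 71.2 CPM in PND8 Ki67-negative, 112 and 122 CPM in PND8 Ki67-positive, 57.3 and 70.4 CPM in repopulating Ki67-negative and 96.7 and 133 CPM in repopulating Ki67-positive cells. PND8 and repopulating libraries of each Ki67 class overlapped. It was higher in Ki67-positive than in Ki67-negative PND8 cells by 1.08 ± 0.22 (log2, edgeR adjusted p = 0.00924), a call lost without the second Ki67-positive library (1.05). The mitotic kinesin Kif18b, Fam83d, a spindle protein, and the kinase Pbk were also higher in both classes at PND8 than in adults, by 4.84, 5.00 and 4.52 on the log2 scale in Ki67-negative cells. In repopulating Ki67-positive cells Kif18b was lower than at PND8 by -0.54 (edgeR, adjusted p = 0.0400), a call lost in 3 of the 4 fits without 1 of these libraries, and Fam83d and Pbk did not pass (-0.38 and -0.49). None of the 3 passed between repopulating and PND8 Ki67-negative cells (-0.35, -0.24 and -0.36); without the first PND8 library Kif18b and Pbk were lower there, by -0.66 and -0.72. E2f8, a repressor of the cell cycle, was at 83.7 and 107 CPM in PND8 and 90.6 and 127 CPM in repopulating Ki67-negative cells against 4.16 and 4.03 CPM in adults. The region linked to E2f8 lay only 50 bp from an adult or repopulating region. Of 14 fixed cell cycle genes 12 were higher at PND8 in Ki67-negative cells than in adults, and none was linked to a neonatal region.

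Rtkn2 and Rasl10b, linked signalling genes, were lower in repopulating cells than at PND8 in both Ki67 classes, by edgeR. Rtkn2 was at 8.42 and 13.1 CPM in PND8 and 2.81 and 1.68 CPM in repopulating Ki67-negative cells. Rasl10b, a Ras-like GTPase, was at 13.7 and 17.98 CPM in PND8 Ki67-negative cells and at 0.10 and 0.46 CPM in repopulating ones, with 0.58 and 0.49 CPM in adults. For Rtkn2 adults were at 0.12 and 0.86 CPM.

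The 10 largest falls at PND8 were of genes whose regions lay 8656 to 606718 bp from the start. Kcnrg, 159507 bp from its region, was at 13.2 and 18.9 CPM in adults, 0.99 and 1.38 CPM in PND8 Ki67-negative and 15.9 and 10.4 CPM in repopulating Ki67-negative cells, a log2 difference of -3.72 ± 0.36 between PND8 and adults (edgeR, adjusted p = 2.59e-06). Ndst1, a heparan sulfate modifying enzyme, fell from 161 and 158 CPM in adults to 31.4 and 21.8 CPM in PND8 Ki67-negative cells. Pde4d, a cAMP phosphodiesterase with the region inside the gene but 606718 bp from its start, was lower by -1.29, and Cdkn1c, an inhibitor of cell division, by -1.68. Dock9, a Cdc42 exchange factor, was lower by -1.26.

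Itpr3 and Capn3 were lower at PND8 and higher in repopulating Ki67-positive cells than in adults. Itpr3, a calcium release channel, was at 98.4 and 106 CPM in adults, 36.3 and 32.3 CPM in PND8 Ki67-negative, 34.5 and 39.4 CPM in PND8 Ki67-positive, 259 and 283 CPM in repopulating Ki67-negative and 209 and 249 CPM in repopulating Ki67-positive cells. Capn3, a calcium-dependent protease, was at 379 and 380 CPM in adults, 156 and 152 CPM in PND8 Ki67-negative and 581 and 659 CPM in repopulating Ki67-negative cells. For both genes adult, PND8 and repopulating libraries did not overlap. Ddit4, a stress-induced inhibitor of mTOR, had unequal adult libraries (15.5 and 54.5 CPM), and its difference of -1.60 from adults was -0.43 and no longer passed without adult replicate 2. Tmem119, a marker of mature microglia, was linked over 10034 bp and was lower at PND8 by -0.60 ± 0.11 (edgeR, adjusted p = 0.000559). Of 22 adult maturation genes 1 was higher and 12 were lower in PND8 Ki67-negative cells.

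The RNA of genes whose regions recurred under cuprizone is given beside that of genes whose regions did not; the difference between them was not tested. Of 33 tested genes linked to a region in all 4 cuprizone lists, 14 were higher and 4 lower in PND8 Ki67-negative cells than in adults (42.4% and 12.1%). Of 162 linked only to regions in no cuprizone list, 76 were higher and 24 lower (46.9% and 14.8%). In repopulating Ki67-negative cells 1 of the 33 was higher and 18 were lower than at PND8 (3.03% and 54.5%), and of the 162 there were 20 higher and 78 lower (12.3% and 48.1%), where 18% and 18.6% of all genes were. Cuprizone RNA was not analysed here, so the regions' recurrence is known for H3K27ac alone. Icos, a costimulatory receptor with such a region, was at 14.1 and 9.78 CPM in adults, 68.9 and 69.2 CPM in PND8 Ki67-negative and 9.58 and 6.71 CPM in repopulating Ki67-negative cells.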

How the data were processed

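The deposited files were lists of H3K27ac, H3K4me3, Rpb2 and ATAC-seq peaks, 1 per library, and tables of RNA read counts and TPM in sorted mouse microglia. Per the submitters' processing notes, STAR 2.7.0f, Bowtie2 2.3.4.1, HOMER 4.11 and DESeq2 were used with mm10/GRCm38. Per the file headers, counts were made by HOMER over exons, with 1 transcript per gene and at most 3 tags per position, and the authors deposited TPM beside them. Per the file headers, each peak's signal is its tag count scaled to a fixed library size, and its score is HOMER's. In the 12 H3K27ac lists the deposited header names and values are in a different order, and the fold over input was taken from the column that equals the ratio of the 2 tag counts. Rpb2 peaks of PND8 cells were called against an H3K27ac input, per the file headers, and ATAC-seq headers name no build, so those positions were read as mm10.

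Regions were compared by overlap of at least 1 bp and linked to the nearest transcript start of the count table. Shares carry exact Clopper-Pearson 95% intervals, which cover counting error only. All 10 RNA libraries were fitted together with edgeR 4.0.16 (quasi-likelihood test, TMM scaling, filterByExpr) in R 4.3.3. Of 20999 genes 12230 were tested, with Benjamini-Hochberg adjustment over all of them and a threshold of 0.05. The floor of 3 counts was 0.275 to 0.457 CPM per library. The fit was tested on simulated data. Alternatives used DESeq2 1.42.0, limma 3.58.1 on log2(TPM + 1) and log2(TPM + 0.1), left-out replicates, and other overlap and filter rules. The members and gene lists were chosen with earlier results of these data known. Genes named were the 15 largest rises and 10 largest falls in PND8 Ki67-negative cells against adults among linked genes past the test with non-overlapping libraries and a group mean of at least 5 CPM, linked genes of 4 lists (early postnatal activation, early microglial stage, adult maturation, transcription factors), the 5 genes with most regions, and genes of the 10 strongest regions and of the 5 strongest in all or in no cuprizone lists. Others, such as Igf1r, Ptk7's neighbour Klc4, Icos, Nrp2, Timp2, Itgb5, Ms4a7, Cd163 and Fut10, were chosen after their values were seen. The planned sequences around ATAC-seq peaks were not used here, since no genome of this build was at hand, and promoter windows from RefSeq were printed instead. With 2 samples per group, p-values rest on a spread estimated from all 10 libraries together and shared in part between genes. They set a difference against the spread among these samples only. The values of 1 erythroid marker are not reported here on their own.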

Additional observations from a re-analysis of the deposited data

How the results depend on the processing

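Requiring a fold of at least 2 (edgeR) left, higher and lower, 56 and 6 linked genes for PND8 Ki67-negative against adult, 49 and 8 for PND8 Ki67-positive against adult, 18 and 16 for repopulating Ki67-positive against adult, 8 and 41 for repopulating against PND8 Ki67-positive, 7 and 47 for repopulating against PND8 Ki67-negative, and 2 and 0 for PND8 Ki67-positive against Ki67-negative cells. Counting only genes linked to regions in no cuprizone list gave, in the same order, 76 and 24, 60 and 25, 32 and 46, 17 and 69, 20 and 78, and 6 and 6, since fewer genes are counted. With 1 replicate left out the ranges of higher and lower genes were 110 to 140 and 35 to 60, 106 to 109 and 41 to 46, 46 to 53 and 76 to 98, 26 to 30 and 104 to 112, 33 to 53 and 116 to 145, and 6 to 26 and 1 to 14; a lone sample is then assumed to vary like the other groups. The count of 35 was without adult replicate 2. Only PND8 Ki67-positive against Ki67-negative moved further: higher and lower were 22 and 43 with header code as a term, 7 and 3 with limma on log2(TPM + 0.1), and lower were 8 with limma on log2(TPM + 1), 32 without the low-count filter and 5 with only the groups compared. The cause was not tested.

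With the replicate number as a block, PND8 Ki67-positive against Ki67-negative gave 17 higher and 28 lower, and the other 5 comparisons stayed within 1.5 times of their counts (152 and 58 for PND8 Ki67-negative against adult). Deviations of same-numbered libraries correlated with r of -0.01 to 0.06 in those 5, and of 0.34 between the PND8 classes, whose same-numbered libraries also share a header code.

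The rule itself gave 57 regions at 8-fold over input or more in the PND8 lists, 508 to 984 with 1 list left out (984 without the first repopulating list, 810 without the first PND8 Ki67-positive and 800 without the second adult list), and 1553 within the 4 lists sharing a header code. Regions in all cuprizone lists numbered 39 to 68 and in none 236 to 290 with 1 cuprizone list left out, 68 without the first Ki67-negative list. Counting only ATAC-seq peak centres inside the region gave 69% at PND8 and 64.2% in repopulating cells, and the stronger part of each list 44%, 23.4% (adult) and 35.2%. Of 3445 values of named genes under an alternative, 3223 kept their side of the threshold, 148 lost and 73 gained a call, and 1 with a call reversed. The 3223 include any value that changed direction without a call in either fit. The reversed value was Ddit4, repopulating Ki67-positive against adult, at 0.76 without adult replicate 2 and -1.05 without adult replicate 1. The header code alternatives and one keeping only regions at least 1000 bp from adult or repopulating ones, which moved no count by 1.5 times, were chosen after seeing the data.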
